A study of Homo sapiens with 12 samples.

Results

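Solute carrier genes encode membrane proteins that move nutrients, ions and metabolites, and 43 of them are among the 2587 genes of the authors' deposited table of comparisons. They were chosen by name: a symbol that starts with SLC and a number, or with SLCO, without antisense RNAs and pseudogenes. Of 44 such rows, SLC8A1-AS1 was left out as antisense. All 43 are protein coding in GENCODE 29. The study used Jurkat, an established line of human T-cell leukaemia, and made 12 poly(A) RNA libraries in 4 groups of 3. The groups are wild-type (WT) Jurkat and a HuR knockout (HuRKO), each untreated (resting) or kept for 24 h in PMA (20 ng/mL) together with ionomycin (500 ng/mL). PMA, a phorbol ester, activates protein kinase C, ionomycin raises calcium in the cell, and together they mimic signals from the T-cell receptor. HuR, encoded by ELAVL1, is an RNA-binding protein that prefers AU-rich and U-rich stretches of mRNA. How the knockout was made, and whether it is 1 clone, is not given in the sources used here, so effects of losing HuR and other differences between the cell lines cannot be told apart.

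Carriers are numbered by family, and members of a family usually share a kind of substrate. Some sit in the plasma membrane and take up glucose, amino acids, nucleosides or vitamins, some exchange ions and set the pH and volume of the cell, and others load vesicles or serve the inner membrane of mitochondria. T cells that become activated are known to raise the uptake of glucose and amino acids for growth, and the uptake of ions also bears on calcium signalling and cell volume.

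The table is a selection, since each of its 2587 genes passed a false discovery rate (FDR) of 0.05 together with a 4-fold limit in 1 or more of the 4 comparisons. It holds 43 of 384 coding solute carrier genes in GENCODE 29 (11.2%), against 1868 of all 19951 coding genes (9.36%). Nothing follows from it for carriers that it does not hold. Of the 43, 12 passed both limits in 1 comparison, 25 in 2, 6 in 3 and 0 in all 4. Levels below are normalised counts of a group, rebuilt from each gene's mean level and its fold changes, and they carry no spread of their own. The FDR stands for the replicate error, values per library were not analysed here, and the depth of each library is unknown. A level below 1 normalised count (3 counts over the 3 libraries of a group) is treated as below the floor, and a fold against such a group is a lower bound. The mean level of the 43 over all libraries ran from 5.82 to 2765, with a median of 37.6 against 38.8 for the whole table, and 13 had at least 1 group below the floor. In bulk RNA, fewer cells with a transcript and less transcript per cell cannot be told apart.

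ELAVL1 itself was at 4042 in resting WT and 596 in resting HuRKO cells, and at 2552 and 471 after activation, so it was low in both HuRKO groups (FDR 2.6e-172 and 1.2e-131 in the authors' deposited table). Of 11 T-cell markers, 3 are listed. CD2 was at 1760 in resting WT cells and at 380.2 in resting HuRKO cells, CD7 at 3890.0 and 2425, and TRAC at 3510.1 and 552, so all 3 were detected in both genotypes and lower in resting HuRKO cells. Their log2 changes there were -2.21 for CD2, -0.68 for CD7 and -2.67 for TRAC in the authors' deposited table, and all 3 were called. Markers of other cell types are listed in part: 1 of 5 for B cells, 2 of 5 for myeloid cells, 4 of 5 for natural killer cells, 2 of 4 for red cells and 0 of 4 for epithelial cells. They are CD79B of B cells, ITGAM and CSF1R of myeloid cells, KLRD1, KLRF1, GNLY and NCAM1 of natural killer cells and the haemoglobin genes HBA1 and HBA2, with levels up to 165 for KLRD1 in activated HuRKO cells. HBA1, HBA2, NCAM1, CD79B and ITGAM were higher in resting HuRKO than WT cells. Their log2 changes were 4.09, 3.95, 2.49, 2.84 and 3.73 in the authors' deposited table. KLRD1, KLRF1, GNLY and CSF1R were not called in that comparison. Between the activated genotypes HBA1, HBA2, NCAM1, GNLY and CSF1R were higher in HuRKO cells and KLRF1 was lower. CD79B, ITGAM and KLRD1 were not called there. Among the T-cell markers, CD2 and TRAC were lower in activated HuRKO cells and CD7 was not called. Activation of WT cells raised ITGAM by 6.58 on the log2 scale, and also raised CD79B, CSF1R, GNLY, KLRD1 and KLRF1. The part of such differences in the results on carriers was not tested.

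Fewer carriers separated the genotypes at rest than after activation, and the same holds for the whole table (40.5% and 77.6%). In the resting state 7 of the 43 were higher in HuRKO than in WT cells and 2 lower, 9 in either direction, where the shares of the whole table are 25%, 15.4% and 40.5%. In the activated state 23 were higher in HuRKO cells and 12 lower, 35 in either direction, where the table has 42.2%, 35.4% and 77.6%. Activation raised 20 and lowered 9 carriers in WT cells, 29 in either direction, where 52%, 21.8% and 73.9% of the table did so. In HuRKO cells it raised 24 and lowered 11, 35 in either direction, against 58.1%, 18.5% and 76.7%. As shares of the 43 these are 16.3% and 4.65% at rest and 53.5% and 27.9% after activation for the genotypes, and 46.5% and 20.9% in WT and 55.8% and 25.6% in HuRKO cells for activation. At rest both shares of carriers are below those of the table. After activation the share of carriers that were higher in HuRKO cells is above that of the table and the share that were lower is below it. The largest gap in the activation responses is the share that fell in HuRKO cells. Differences between carriers and the table were not tested. Each genotype comparison shares libraries with both activation responses, so their counts are not independent. Median log2 changes of the 43 were 0.20 at rest and 0.86 after activation for HuRKO against WT, and 1.27 in WT and 1.59 in HuRKO cells for activation. Over all listed genes they were 0.18, 0.36, 1.42 and 1.45. Past 4-fold as well, the resting genotypes differed upward in 4 carriers and downward in 1, 5 in all (background 13.7%, 7.69% and 21.4%). In the activated state 18 were higher and 8 lower in HuRKO cells, 26 in all (background 31.7%, 22.3% and 54%). In WT cells activation took 18 up and 6 down past 4-fold, 24 in all (background 44.7%, 14.4% and 59.1%), and in HuRKO cells 19 and 6, 25 in all (background 38.8%, 10.7% and 49.6%). The limit of 4-fold also chose the genes of the table, so the counts of each comparison depend on that choice.

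**Figure D1:**
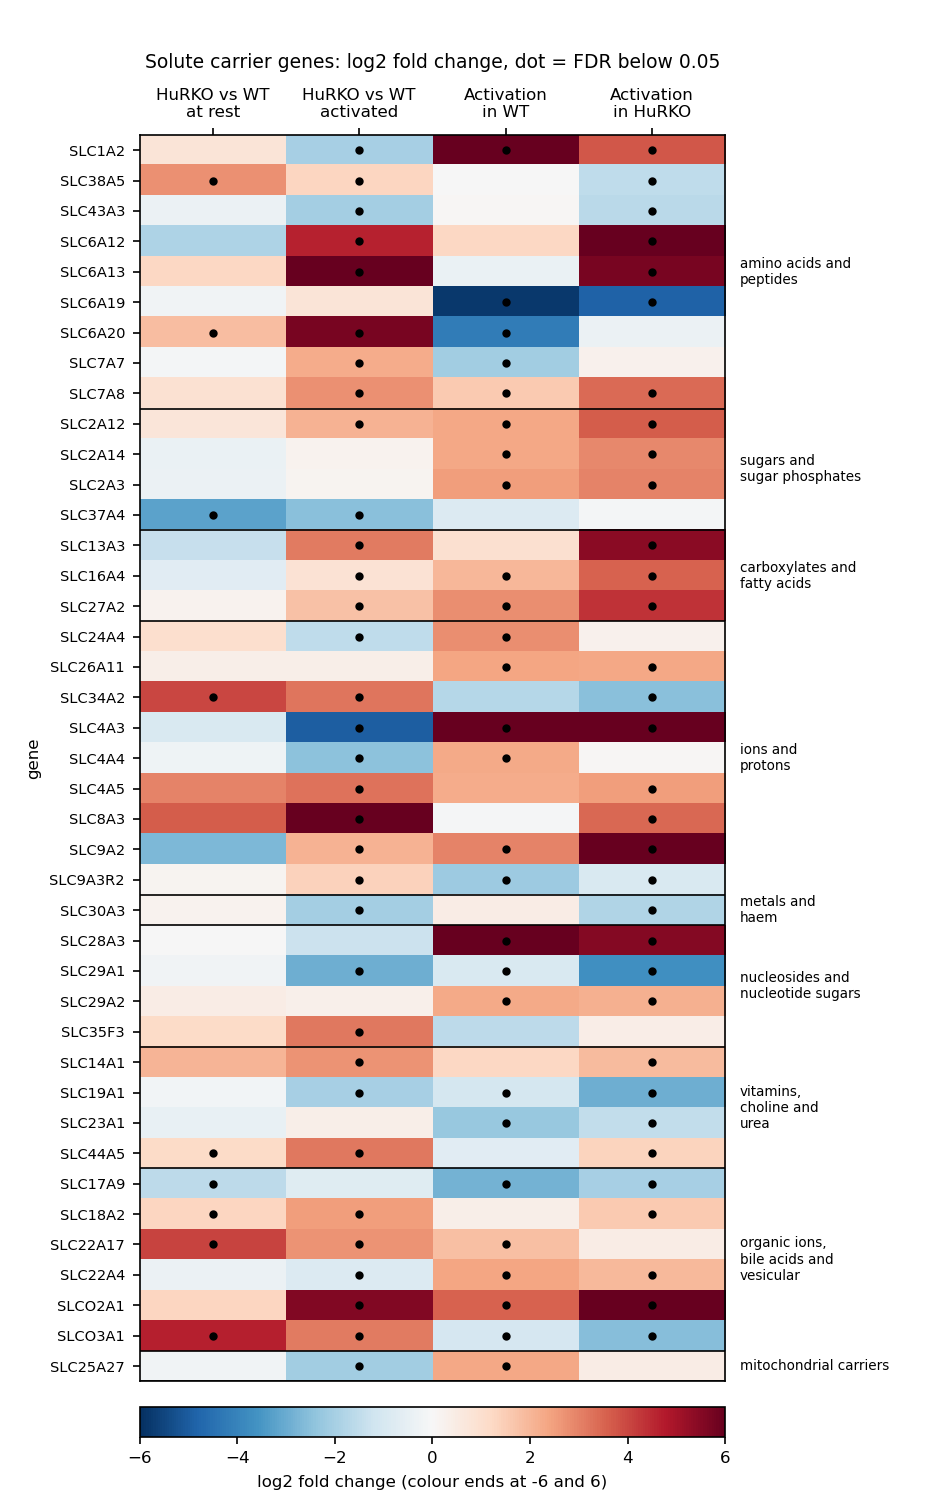
Log2 fold change of 41 of the 43 solute carrier genes (rows, grouped by substrate) in the 4 comparisons (columns), with the colour running from -6 to 6 and a dot where the FDR of the authors' deposited table is below 0.05. Dots are sparse in the first column, with 9 of 41, and the second column has 33.

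At rest, HuRKO cells carried more mRNA of a few transporters of organic ions, amino acids and phosphate. SLCO3A1, an organic anion transporter, was 25.1-fold higher, SLC22A17, a receptor for lipocalin 2, 16.5-fold higher, and the phosphate cotransporter SLC34A2 15.9-fold higher. The last value rests on a WT level of 1.18, just above the floor, and with a floor of 3 counts per library it is at least 6.25-fold. The glutamine transporter SLC38A5 was 6.75-fold higher. SLC37A4, which brings glucose 6-phosphate into the endoplasmic reticulum, was 9.28-fold lower and the vesicular nucleotide transporter SLC17A9 2.92-fold lower. All 7 carriers that were higher at rest were also higher after activation, as were 69.3% of all listed genes that were higher at rest. Of the 2 lower ones, SLC37A4 was lower again and SLC17A9 was not called.

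More carriers differed between the genotypes after activation, some from levels near the floor. SLC6A13 and SLC6A12, transporters of GABA and betaine, SLC8A3, a sodium-calcium exchanger, and SLCO2A1, the prostaglandin transporter, were higher in HuRKO cells by at least 130.4-fold, 24.3-fold, at least 25.4-fold and 46.4-fold. With a floor of 3 counts per library the first 3 are at least 43.5-fold, 13.6-fold and 8.47-fold, and the last is the same. The anion exchanger SLC4A3 was 31.2-fold lower, the nucleoside transporter SLC29A1 7.71-fold lower and the sodium bicarbonate cotransporter SLC4A4 5.51-fold lower. Of the 23 that were higher, 16 were not called at rest, and the same holds for 11 of the 12 lower ones. Carriers called after activation and not at rest are thus 62.8% of the 43, against 44.2% of the table. Whether the genotype difference itself changed with activation has no test in the table and was not tested here.

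**Figure D2:**
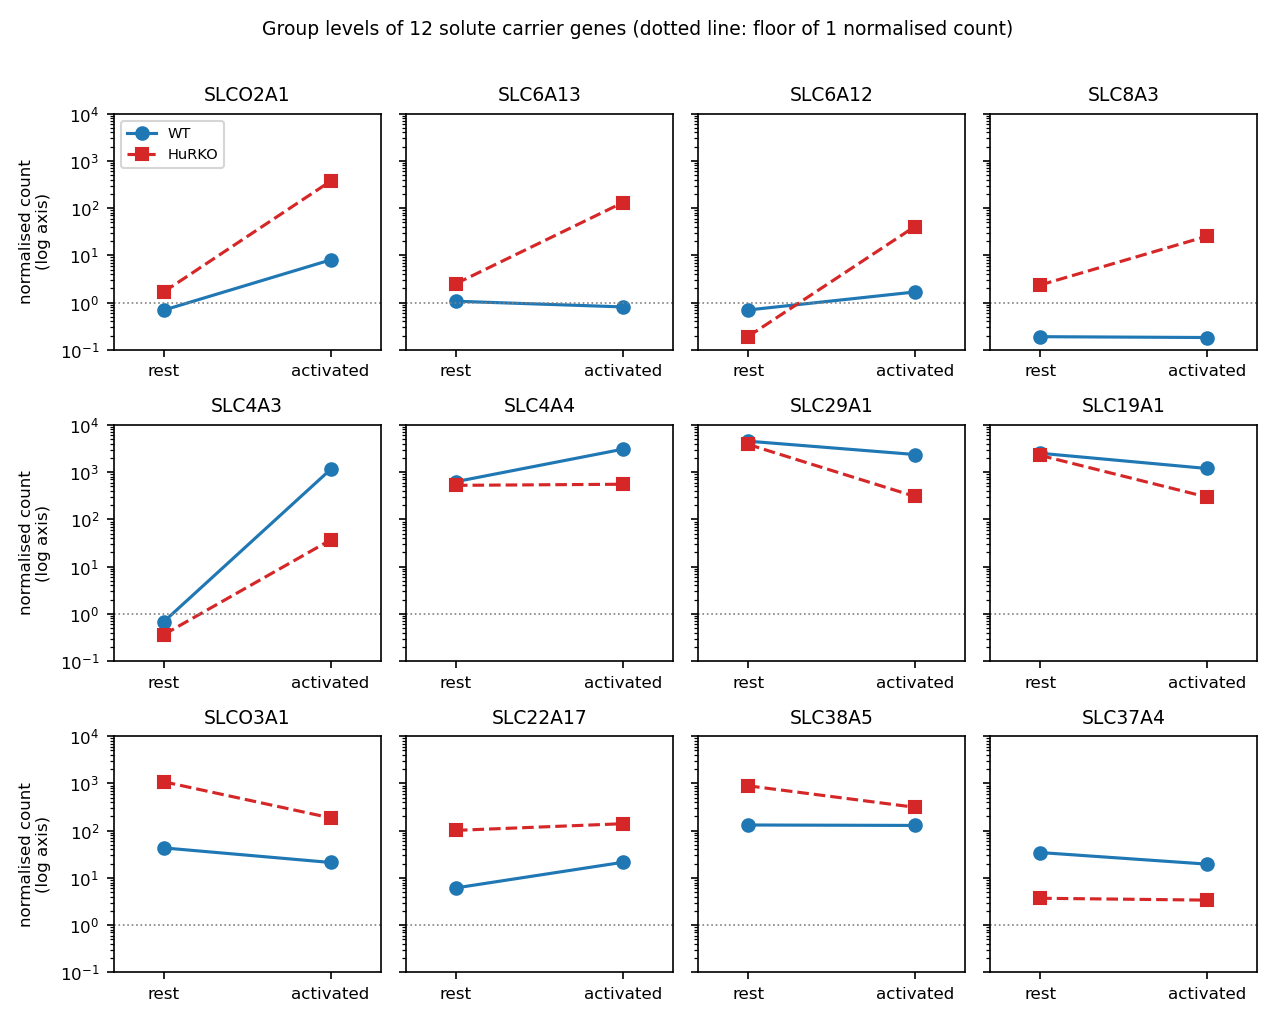
Group levels in normalised counts (log axis) of 12 carriers at rest and after activation, in WT (circles, solid line) and HuRKO cells (squares, dashed line), rebuilt from the authors' deposited table, with the floor of 1 as a dotted line. The lines start close together and part after activation for SLC29A1, SLC19A1 and SLC4A4, whereas SLCO3A1 and SLC22A17 are higher in HuRKO cells at both states.

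Because HuR prefers AU-rich stretches, the 3′ UTRs of the 43 carriers were searched for the AU-rich core TATTTAT (written as DNA, transcript strand) in 1 principal transcript a gene from GENCODE 29. It occurred in 15 of the 43. The sites below, with the core in capitals and its flanks in lower case, are shown for a pair of gene copies, for 2 carriers that were higher in activated HuRKO than WT cells (SLCO2A1, SLC18A2) and for 2 that were lower (SLC1A2, SLC25A27).
SLC2A3 (chr12:7920929-7920953, minus strand, hg38): cttgagtttTATTTATtttatcctc
SLC2A14 (chr12:7813831-7813855, minus strand, hg38): cttgagtttTATTTATcttatcctc
SLCO2A1 (chr3:133933464-133933488, minus strand, hg38): caacaaataTATTTATtggagaccg
SLC18A2 (chr10:117277766-117277790, plus strand, hg38): ctatcaataTATTTATgcgttaaac
SLC1A2 (chr11:35260058-35260082, minus strand, hg38): attcaaattTATTTATgttcggttt
SLC25A27 (chr6:46676887-46676911, plus strand, hg38): ttatgtcagTATTTATcaatgaagt
The windows of SLC2A3 and SLC2A14 differ at 1 of 25 bases. For a like-for-like share, the first 1000 bases after the stop codon were taken where a 3′ UTR is that long. The core was in 10 of 26 such carriers (38.5%), in 215 of 924 listed coding genes (23.3%) and in 2087 of 8757 coding genes in all (23.8%). The 10 include both gene copies, SLC2A3 and SLC2A14. By direction in activated HuRKO cells it was in 6 of 16 higher (37.5%), 2 of 5 lower (40%) and 2 of 5 carriers not called (40%). For the listed coding genes these shares were 22.7%, 25.8% and 19.9%. The 2 carriers not called that hold the core are the gene copies SLC2A3 and SLC2A14. The carrier shares rest on few genes, and whether the core goes with direction was not tested. The shorter pentamer ATTTA, which the core contains, was in 18 of 26 carriers (69.2%), in 634 of 924 listed coding genes (68.6%) and in 75.2% of all coding genes. A match describes the letters and does not show that HuR binds there.

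Of the 4 sugar transporters 3 rose on activation in both genotypes, as did 39.7% of all listed genes. SLC2A3 and SLC2A14 did not pass the test between genotypes in either state. SLC2A3 (ENSG00000059804.15) encodes GLUT3, a high-affinity glucose transporter, and lies at chr12:7919230-7936275 (minus strand, hg38). Its level went from 191 to 1079.8 in WT and from 152 to 1207 in HuRKO cells. The log2 changes in the authors' deposited table were 2.50 (FDR 2.5e-97) and 2.99 (FDR 1.7e-132), with 0.16 (FDR 0.18) between the activated genotypes. SLC2A14, a close copy of it on the same arm, went from 17 to 83.7 and from 13.1 to 95.9. Of the 50-base words in the SLC2A14 transcript, 21.8% also occur in SLC2A3 transcripts, so its values are uncertain. SLC2A12, which encodes GLUT12, was at 1.74 and 8.63 in WT and at 2.90 and 36.1 in HuRKO cells. It rose in both, and after activation HuRKO exceeded WT cells 4.18-fold (authors' deposited table, FDR 0.0019).

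SLC37A4 behaved differently from the 3 hexose transporters. Its protein delivers glucose 6-phosphate for the last step of glucose release. The gene (chr11:119024114-119030906, minus strand, hg38) was at 34.5 in resting WT and 3.71 in resting HuRKO cells, and at 19.6 and 3.39 after activation. HuRKO cells were low in both states, with log2 changes of -3.21 (FDR 5.8e-06) and -2.53 (FDR 2.3e-04) in the authors' deposited table, and neither activation response was called. In all, activation raised 3 of 4 genes of this group in each genotype and lowered 0, and 1 was higher and 1 lower in activated HuRKO cells.

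Of the 9 listed genes in amino acid transporter families, 6 were higher and 2 lower in activated HuRKO than in activated WT cells. The shares of the table are 42.2% and 35.4%. The 9 were grouped by family number and include SLC43A3, which is known to carry purine bases. With so few genes the counts describe these members, and the median log2 change of the 9 was 2.22 against 0.79 at rest. SLC6A12, the betaine and GABA transporter BGT1, and SLC6A13, the GABA transporter GAT2, are neighbours on the minus strand of chromosome 12 (190077 to 214570 and 220621 to 262873, hg38). SLC6A13 (ENSG00000010379.15) was at 1.07 in resting WT, 0.810 in activated WT, 2.52 in resting HuRKO and 130.4 in activated HuRKO cells. SLC6A12 was at 0.697, 1.68, 0.191 and 40.7 in the same order. Both were thus near or below the floor in 3 groups and well above it in activated HuRKO cells. The authors' deposited table gives log2 changes between the activated genotypes of 7.33 for SLC6A13 (FDR 6.6e-06) and 4.60 for SLC6A12 (FDR 1.8e-07). With activation of HuRKO cells SLC6A13 rose 51.8-fold and SLC6A12 at least 40.7-fold (at least 13.6-fold with a floor of 3 counts per library), and neither was called in WT cells.

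A further pair of this family are carriers of neutral amino acids of kidney and gut. SLC6A19, which encodes B0AT1, was at 20.0 in resting WT and 17.3 in resting HuRKO cells and fell below the floor with activation in both, to 0.360 and 0.609 (authors' deposited table: log2 changes -5.80, FDR 3.5e-05, and -4.83, FDR 8.3e-05). SLC6A20, a carrier of proline and other imino acids, was at 6.74 in resting WT and fell to 0.366 (authors' deposited table: log2 change -4.20, FDR 0.0032), whereas HuRKO cells were at 24.5 and 19. It was 3.63-fold higher in HuRKO cells at rest and at least 19-fold higher after activation (at least 6.34-fold with the floor per library). The log2 changes in the authors' deposited table were 1.86 (FDR 0.0058) and 5.70 (FDR 2.3e-05).

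SLC7A7 and SLC7A8 encode y+LAT1 and LAT2, light subunits that work in a dimer with the SLC3A2 heavy chain. Both lie on the minus strand of chromosome 14, at 22773222 to 22829820 and 23125295 to 23183674 (hg38). SLC7A7 fell from 40.3 to 9.62 in activated WT cells (authors' deposited table: log2 change -2.07, FDR 9.0e-07) and stood at 37.1 and 44.8 in HuRKO cells. SLC7A8 rose from 4.66 to 14 in WT and from 8.89 to 94.1 in HuRKO cells. After activation HuRKO cells had 4.66-fold more SLC7A7 (FDR 6.8e-08) and 6.70-fold more SLC7A8 (FDR 5.3e-10) by the authors' deposited table. Neither passed the test at rest (FDR 0.85 and 0.29 in the authors' deposited table).

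SLC38A5, a sodium-coupled transporter of glutamine and other neutral amino acids on chromosome X, was at 132 and 129 in resting and activated WT cells. In HuRKO cells it was at 891 and fell to 313. It was higher in HuRKO cells in both states, by log2 changes of 2.76 (FDR 8.3e-59) and 1.28 (FDR 4.0e-13) in the authors' deposited table. It is the 1 carrier that reached 4-fold in the comparison at rest and in no other.

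The remaining 2 of this group were lower in activated HuRKO cells. SLC1A2, the glutamate transporter EAAT2, was below the floor at rest in both genotypes and rose to 34.5 in WT and 8.72 in HuRKO cells. Its log2 changes in the authors' deposited table were 6.49 in WT cells (FDR 2.7e-06) and -1.99 between the activated genotypes (FDR 0.0026). SLC43A3, a family member known to carry purine bases, was at 2311 and 2453 in resting and activated WT cells and at 1827 in resting HuRKO cells, and it fell to 599 in activated HuRKO cells. Against activated WT cells the log2 change was -2.03 (FDR 5.6e-37) in the authors' deposited table. A read-through locus in GENCODE 29 holds 46.9% of its 50-base words, so its count depends on how shared reads were assigned.

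All 3 listed carriers of organic acids and fatty acids rose in HuRKO cells and were higher there than in activated WT cells. Of the whole table, 58.1% rose in HuRKO cells and 42.2% were higher in activated HuRKO than WT cells. With 3 genes the counts describe these members only. SLC27A2 (ENSG00000140284.10), an acyl-CoA synthetase and transporter of very long-chain fatty acids (chr15:50182196-50236395, plus strand, hg38), rose from 81.8 to 559 in WT and from 93.8 to 1912 in HuRKO cells. The log2 changes were 2.77 (FDR 1.2e-64) and 4.35 (FDR 8.1e-173), and 1.77 (FDR 1.6e-39) between the activated genotypes, in the authors' deposited table. SLC13A3, a sodium-dependent dicarboxylate transporter, was at 1.74 and 3.35 in WT cells, and went from below the floor to 29.1 in HuRKO cells. SLC16A4, a member of the monocarboxylate transporter family, rose from 9.27 to 37.4 and from 5.79 to 67.9, and its difference between the activated genotypes was small (1.82-fold, FDR 0.034 in the authors' deposited table).

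The ion and proton group, with 10 members, held both the largest rise of a carrier in WT cells and carriers that were near the floor there. In activated HuRKO cells 6 of the 10 were higher and 3 lower, where the shares of the table are 42.2% and 35.4%. SLC4A3 (ENSG00000114923.16), the chloride-bicarbonate exchanger AE3 (chr2:219627327-219641980, plus strand, hg38), was below the floor at rest, at 0.684 in WT and 0.365 in HuRKO cells. It reached 1145 in activated WT and 36.7 in activated HuRKO cells. These are rises of at least 1145-fold and at least 36.7-fold, or at least 382-fold and 12.2-fold with a floor of 3 counts per library. The authors' deposited table gives log2 changes of 10.71 in WT (FDR 1.6e-19) and 6.65 in HuRKO cells (FDR 8.4e-07), and of -4.96 between the activated genotypes (FDR 1.1e-19). This exchanger was thus below the floor at rest and highest in activated WT cells.

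SLC4A4, the electrogenic sodium bicarbonate cotransporter NBCe1 (chr4:71062667-71572087, plus strand, hg38), was abundant in each group. It was at 629.5 and 525 in resting WT and HuRKO cells. With activation it rose to 3056 in WT cells and was at 554 in HuRKO cells. The response was 2.28 on the log2 scale in WT (FDR 2.1e-74) and 0.08 in HuRKO cells (FDR 0.61) in the authors' deposited table. The third member of the family, SLC4A5 (NBCe2), went the other way between genotypes, at 1.86 in activated WT against 17.9 in activated HuRKO cells (authors' deposited table: log2 change 3.27, FDR 0.0013). At rest it was at 0.392 and 3.11. A read-through locus shares 57.8% of its 50-base words, and its counts are few.

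Exchangers of calcium and protons differed as well. SLC8A3, the sodium-calcium exchanger NCX3, was below the floor in WT cells in both states, at 0.190 and 0.182, and at 2.35 and 25.4 in HuRKO cells. After activation the log2 change between genotypes was 7.12 (FDR 4.5e-07) in the authors' deposited table. SLC24A4, an exchanger of sodium for calcium and potassium, rose from 2.36 to 16.4 in WT cells and was at 4.79 and 5.79 in HuRKO cells. Its difference after activation was near the threshold (FDR 0.048 in the authors' deposited table). SLC9A2, the sodium-proton exchanger NHE2, rose from 1.26 to 9.91 in WT and from 0.194 to 41.7 in HuRKO cells, by 2.97 (FDR 0.005) and 7.75 (FDR 9.1e-09) on the log2 scale of the authors' deposited table. SLC9A3R2 starts with the same letters but encodes NHERF2, a scaffold protein and no transporter. It fell from 147 to 32.8 in WT and from 165 to 86.7 in HuRKO cells (authors' deposited table: WT log2 change -2.16, FDR 6.2e-18).

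Carriers of sulfate and phosphate also belong to the group. SLC26A11, a sulfate transporter, rose from 31.7 to 163 and from 41 to 206, and did not pass the test between genotypes in either state (FDR 0.36 and 0.13 in the authors' deposited table). SLC34A2, the phosphate cotransporter NaPi-IIb, was at 1.18 in resting WT and 18.7 in resting HuRKO cells, and at 0.357 and 3.31 after activation. Its mean level of 5.89 is among the lowest of the 43, so few counts stand behind it. In the authors' deposited table HuRKO exceeded WT cells by 3.99 on the log2 scale at rest (FDR 7.2e-04) and by 3.21 after activation (FDR 0.04), and the change with activation in HuRKO cells was -2.50 (FDR 0.0029).

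The 1 listed metal carrier was lower in activated HuRKO cells. SLC30A3, the zinc transporter ZnT3 of vesicles, was at 83.5 and 113 in resting and activated WT cells and at 97.6 and 27.9 in HuRKO cells. The log2 change between the activated genotypes was -2.02 (FDR 2.0e-13) in the authors' deposited table.

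Nucleoside transporters moved in opposite directions on activation. SLC29A1 and SLC29A2 encode ENT1 and ENT2, which let nucleosides equilibrate across the membrane. SLC29A1 (ENSG00000112759.16, chr6:44219505-44234151, plus strand, hg38) fell from 4523 to 2362 in WT cells and from 3867 to 306 in HuRKO cells. The changes were -0.94 (FDR 2.3e-13) and -3.66 (FDR 1.1e-171) on the log2 scale, and -2.95 (FDR 1.5e-110) between the activated genotypes, in the authors' deposited table. SLC29A2 rose instead, from 97.5 to 468 in WT and from 131 to 576 in HuRKO cells. It did not pass the test between the genotypes in either state (FDR 0.085 and 0.099 in the authors' deposited table). SLC28A3, the concentrative transporter CNT3, rose from below the floor to 22.5 in WT and 9.11 in HuRKO cells, with log2 changes of 6.79 (FDR 3.0e-06) and 5.52 (FDR 1.5e-04) in the authors' deposited table. SLC35F3, of the nucleotide sugar transporter family, was at 5.57 and 1.87 in WT and at 12.5 and 16.7 in HuRKO cells, with a log2 change of 3.16 between the activated genotypes (FDR 4.2e-04) in the authors' deposited table.

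Vitamin, choline and urea carriers held 2 members, of 4, that fell in both genotypes, as did 11.4% of the table. SLC19A1, the reduced folate carrier (chr21:45493572-45544411, minus strand, hg38), fell from 2512 to 1195 in WT and from 2266 to 296 in HuRKO cells. The log2 changes were -1.07 (FDR 4.2e-14) and -2.93 (FDR 6.1e-93) in the authors' deposited table. For HuRKO against WT after activation the authors' deposited table has -2.01 (FDR 2.8e-43). SLC23A1, the vitamin C transporter SVCT1, fell from 177 to 37.0 and from 132 to 47.5 and did not pass the test between genotypes. Its WT log2 change was -2.26 (FDR 7.7e-23) in the authors' deposited table. SLC44A5, a choline transporter-like protein, was at 25.1 and 15.7 in WT and at 56.6 and 142 in HuRKO cells, and was higher there in both states (FDR 0.0049 and 3.9e-18 in the authors' deposited table). SLC14A1, the urea transporter UT-B, was at 2.20 and 5.18 in WT and at 8.94 and 33.6 in HuRKO cells, higher after activation (FDR 7.3e-05) and short of the threshold at rest (FDR 0.055 in the authors' deposited table).

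Carriers of organic ions and of vesicles included the members that differed most at rest. SLCO3A1 (ENSG00000176463.13, chr15:91853695-92172435, plus strand, hg38) transports organic anions such as prostaglandins and thyroid hormone. It was at 43.2 in resting WT against 1084 in resting HuRKO cells, and at 21.2 against 187 after activation. The log2 changes were 4.65 (FDR 5.9e-133) and 3.13 (FDR 3.7e-40) in the authors' deposited table, and activation lowered it in both genotypes. SLC22A17 (chr14:23346306-23352912, minus strand, hg38) was at 6.15 against 102 at rest and at 21.4 against 140.5 after activation. Its log2 changes were 4.04 (FDR 1.4e-19) and 2.71 (FDR 1.5e-17) in the authors' deposited table. It lies near SLC7A8, on the same strand. SLC7A8 was not called at rest and was higher in activated HuRKO than WT cells (authors' deposited table: log2 change 2.74, FDR 5.3e-10). Any link between these genes was not tested.

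SLCO2A1, which takes up prostaglandins for their breakdown (ENSG00000174640.12, chr3:133928145-134052184, minus strand, hg38), was low in 3 groups. Its levels were 0.694 and 8.01 in resting and activated WT cells and 1.69 and 372 in HuRKO cells. Activation raised it 219.9-fold in HuRKO and at least 8.01-fold in WT cells, or by 7.78 (FDR 1.7e-27) and 3.53 (FDR 0.0035) on the log2 scale of the authors' deposited table. With a floor of 3 counts per library the 2 rises are at least 124-fold and at least 2.67-fold. Between the activated genotypes the log2 change was 5.54 (FDR 1.1e-41 in the authors' deposited table).

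The vesicular carriers of this group, SLC18A2 and SLC17A9, went different ways. SLC18A2, the vesicular monoamine transporter VMAT2, was at 46.5 and 59.7 in WT and at 112 and 338 in HuRKO cells, higher in both states by 1.27 (FDR 6.9e-08) and 2.50 (FDR 9.6e-37) on the log2 scale of the authors' deposited table. SLC17A9, which loads ATP into vesicles, fell from 87.2 to 12.4 in WT and from 29.8 to 7.44 in HuRKO cells, which is 7.03-fold (FDR 2.5e-12) and 4.01-fold (FDR 1.4e-05) by the authors' deposited table. The log2 change of HuRKO against WT at rest was -1.55 (FDR 7.2e-05) in the authors' deposited table. SLC22A4 (OCTN1), one of the organic ion carriers, transports ergothioneine. It rose from 15.2 to 79.1 in WT and from 11.7 to 44.6 in HuRKO cells. It was lower in activated HuRKO than in activated WT cells, with a log2 change of -0.83 (FDR 0.011) in the authors' deposited table.

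The 1 listed mitochondrial carrier was SLC25A27, the uncoupling protein UCP4. It rose from 31.1 to 155 in WT cells and was at 26.9 and 36.8 in HuRKO cells, with a log2 change of -2.08 between the activated genotypes (FDR 5.4e-11) in the authors' deposited table.

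**Figure D3:**
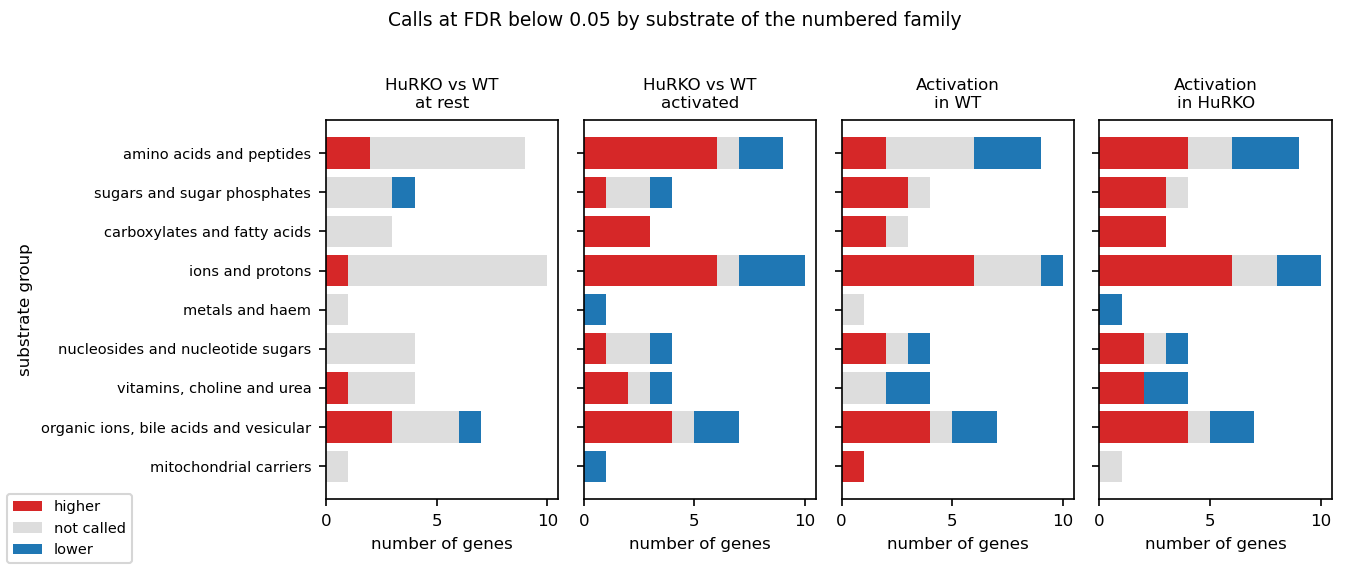
Number of carriers that were higher (red), lower (blue) or not called (grey) at FDR below 0.05 in the authors' deposited table, by substrate group (rows) and comparison (panels). The amino acid group goes from 2 of 9 higher in resting HuRKO cells to 6 of 9 after activation, and the 3 carboxylate and fatty acid carriers from 0 to 3. The share of the whole table goes from 25% to 42.2%.

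The activation responses of WT and HuRKO cells rest on different libraries, so their calls can be set side by side. Of the 20 carriers that rose in WT and the 24 that rose in HuRKO cells, 16 are shared (80% and 66.7%), and of the 9 and 11 that fell, 7 are shared (77.8% and 63.6%). Over all listed genes the shared rises are 76.4% and 68.4% of those in WT and HuRKO cells, and the shared falls 52.2% and 61.6%. None of the 43 was called in opposite directions by the 2 responses, whereas 2.32% of the table rose in WT and fell in HuRKO cells and 5.26% did the reverse. Carriers called in HuRKO cells and not in WT numbered 12 (27.9%, against 17.9% of the table), of which SLC6A12, SLC6A13, SLC13A3, SLC4A5, SLC8A3, SLC14A1, SLC44A5 and SLC18A2 rose and SLC38A5, SLC43A3, SLC34A2 and SLC30A3 fell. The reverse held for 6 (14%, against 15.2% of the table), with SLC24A4, SLC4A4, SLC22A17 and SLC25A27 rising and SLC6A20 and SLC7A7 falling in WT cells. The response in HuRKO minus that in WT cells ran from -4.06 for SLC4A3 to 6.47 for SLC6A12 on the log2 scale. Both SLC4A3 and SLC6A12 were below the floor at rest in both genotypes, so the size of these extremes is uncertain. The difference was above 2 for 9 carriers, below -2 for 7 and in between for 27. Such counts were not made over the whole table, so they describe these members only. The median difference was 0.68 against -0.07 over the table. These differences were not tested, and values of carriers near the floor depend on a few counts.

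**Figure D4:**
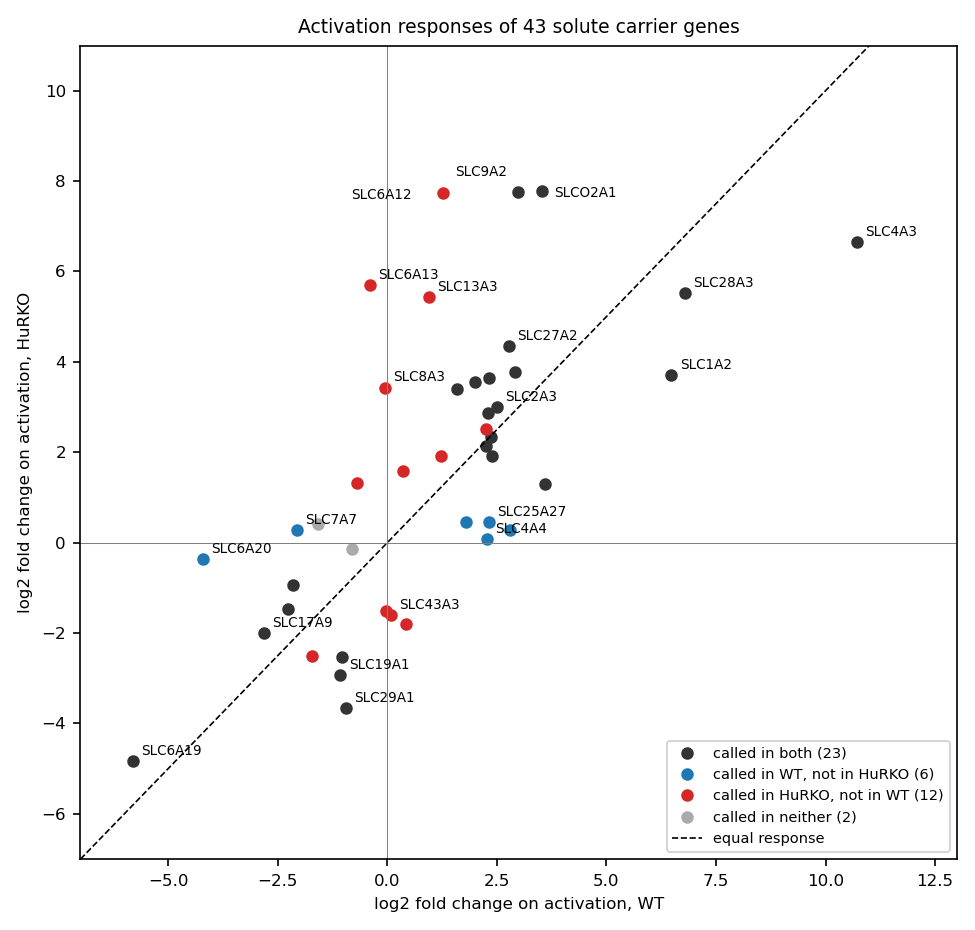
Log2 fold change on activation in WT cells (horizontal axis) against that in HuRKO cells (vertical axis) for the 43 carriers, from the authors' deposited table, with colours for where the FDR is below 0.05 and a dashed line of equal response. SLC6A12 and SLC6A13 stand above the line at 7.73 and 5.69 in HuRKO cells, and SLC4A3 below it at 10.71 in WT and 6.65 in HuRKO cells.

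Per kilobase of annotated exon, the order of the carriers within a group also differed. In resting WT cells the highest levels were those of SLC29A1 (1026 normalised counts per kilobase), SLC43A3 (512) and SLC19A1 (251). In resting HuRKO cells SLC29A1 (877), SLC43A3 (405) and SLC19A1 (227) again came first, followed by SLC38A5 (222). In activated WT cells SLC43A3 (543) and SLC29A1 (536) came before SLC4A4 (318) and SLC4A3 (225). In activated HuRKO cells SLC27A2 (682) came before SLC29A2 (212), SLC2A3 (196) and SLC43A3 (133). No spread can be given for these levels, so neighbours such as SLC43A3 and SLC29A1 in activated WT cells are not shown to differ. All annotated exons enter the length, used or not.

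Other genes of membrane transport were counted from lists chosen by symbol. For 33 listed ion channel genes, the resting genotypes differed upward in 13 and downward in 2, and the activated ones in 21 and 7. The shares of the table to read these and the next counts against are 25% and 15.4% at rest and 42.2% and 35.4% after activation. In the same comparisons the 5 ABC transporters had 1 higher and 1 lower, then 2 and 2, and the 6 ion pumps 1 and 1, then 4 and 1. Of the 2 aquaporins 0 were higher and 1 lower at rest, and 1 and 0 after activation. Among 27 genes of glucose use 2 are listed, and ALDOC, a glycolytic aldolase, rose with the sugar transporters, from 284 to 1274 in WT and from 341 to 2446 in HuRKO cells, while the hexokinase-like gene HKDC1 fell in both. Of 22 genes of amino acid use, TRIB3, ASNS and BCAT1 are listed and all 3 were lower in activated HuRKO cells, with TRIB3, a pseudokinase of the stress response, at 1141 against 6022. Of 20 genes of zinc and iron handling 5 are listed, with 1 higher and 3 lower in activated HuRKO cells. The metallothionein MT2A was at 1789 there against 8362 in activated WT cells. The metallothionein MT1F went the other way, at 78.2 against 14.2, and MT1E was not called, at 93.3 against 82.1.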

How the data were processed

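The authors' deposited table of comparisons was the source of all values. TopHat, Bowtie2 and hg38 are named in the submitters' processing notes. How reads were counted, whether by strand, and which test gave the FDR were not stated there. Libraries were directional, per the labels' protocols. Per the file headers, the authors give a mean signal (taken as normalised counts), a log fold change (taken as log2) and an FDR, which is a deposited adjusted p-value. Base 2 is inferred from low levels that gather in steps on it: a window of 10% width holds 30.6% of those below the floor in resting WT cells, against 5.34% on base e. Group levels were rebuilt for 4 equal groups with Python 3.11.15 and pandas 2.3.3, and the step was tested on simulated data. The 4 changes close within 1e-09 in all 2587 genes. Calls follow the authors' FDR below 0.05 and no model was fitted. Separate cultures are not named as the source of replicates, so the FDR may reflect technical spread, and no batch is named. All 43 identifiers matched GENCODE 29 (hg38), which gave coordinates, exon lengths, 3′ UTRs and shared 50-base words. Of the 43, 10 overlap a gene on the same strand and 24 on the other strand, and how their reads were assigned is unknown. Given in full are the up to 6 largest rises and 6 largest falls of each comparison and any carrier called in opposite directions. The others are given in their substrate group, set by family number. Of the 43, 2 enter the counts and medians and are not reported here one by one. Members and lists were chosen with earlier results of these data known.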

Additional observations from a re-analysis of the deposited data

How the results depend on the processing

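At an FDR below 0.01, at 2-fold or more and without SLC9A3R2, all 8 counts of carriers called stayed within 1.5 times their value. The same held without SLC2A14 and without members below the floor in both groups, which were chosen after seeing the data. At 4-fold or more, the genotypes at rest differed in 4 carriers upward and 1 downward, and 6 fell on activation of HuRKO cells. With a mean level of at least 20, which keeps 28 of the 43, 1 was lower at rest, 13 were higher in activated HuRKO cells and 15 rose on activation of HuRKO cells. Both settings can call fewer genes by construction. With a floor of 3 counts per library, 24 of the folds given in full kept their value and 20 moved, such as SLC4A3 in WT cells from at least 1145-fold to at least 382-fold and SLC34A2 at rest from 15.9-fold to at least 6.25-fold. If the changes were on base e, the group levels of the carriers given in full would all move. No paired analysis was possible because the table holds comparisons and no values per library, so neither the replicate block nor leaving out a replicate was run. The depth is unknown, and carriers near the floor rest on few counts.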

Other observations

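Some pumps and channels, chosen after their values were seen, also had unlike levels in the activated genotypes. ATP1B4, named as a subunit of the sodium pump, rose from below the floor to 165 in activated WT and was at 6.06 in activated HuRKO cells (authors' deposited table: log2 change -4.76, FDR 8.1e-26). ATP6V0A4, a subunit of the proton pump, was at 8.37 in activated WT and 165 in activated HuRKO cells (authors' deposited table: log2 change 4.30, FDR 7.1e-22). ATP2B4, a calcium pump of the plasma membrane, fell from 7067 to 1586 in WT cells and was at 3919 and 4885 in HuRKO cells. The potassium channel gene KCNK5 rose from 798 to 4859 in WT and fell from 757 to 471 in HuRKO cells, with FDR 1.6e-153 and 2.3e-10 in the authors' deposited table. AQP3, a channel for water and glycerol, was at 2204 and 473 in WT and at 986 and 901 in HuRKO cells.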
